A study of Macaca mulatta with 17 samples.

Results

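Secreted Wnt antagonists are extracellular proteins that restrain Wnt signaling, and 9 of them were followed through the fetal rhesus macaque uterus: WIF1, SFRP1, SFRP2, SFRP4, SFRP5, FRZB, DKK1, DKK2 and DKK3. The members were chosen by name, from probes whose description in the scanner output held one of these symbols, and, for a gene with several probes, by the highest mean processed signal over the 17 arrays. Each gene had 1 probe, so that this signal decided nothing, and the family made up 9 of 16475 named genes. All 9 were well above background on all 17 arrays and none was saturated. The family was chosen with results of these data known, and WIF1 was then already known to be higher in GD165 than in GD100 controls, so that its values in controls are given as a description, with no test. By age, WIF1, SFRP4 and FRZB were higher and DKK2 was lower at GD165, both in controls and in BPA-exposed fetuses. None of the 9 passed the test between BPA-exposed and control fetuses at either age.

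Wnt ligands signal through frizzled receptors and the co-receptors LRP5 and LRP6, and the canonical branch of the pathway ends in stabilized beta-catenin and transcription of target genes. WIF1 and the secreted frizzled-related proteins, FRZB among them, bind the ligands themselves outside the cell, whereas DKK1 and DKK2 bind the LRP co-receptors. In the female tract Wnt ligands are known for their part in forming and patterning the Müllerian duct and in the differentiation of uterine stroma, smooth muscle and glands.

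RNA was measured from individual uteri of 17 female fetuses in 4 groups on 1-color Agilent arrays. Dams carrying BPA-exposed fetuses ate fruit with deuterated bisphenol A (BPA, an estrogenic component of plastics) at 400 µg/kg per day, and control dams ate fruit with ethanol vehicle alone. The GD100 groups, 5 control and 5 BPA-exposed fetuses, were dosed from gestational day 50 and delivered on day 100 by caesarean. The GD165 groups, 4 control and 3 BPA-exposed fetuses, were dosed from day 100 and born vaginally between days 165 and 168. Age at sampling and mode of delivery therefore cannot be told apart, and in the BPA groups neither can the window of exposure. Stillborn fetuses were not included. The tissue was one side of a uterus cut from fundus to cervix, with all of its layers, and in such bulk RNA fewer cells of a type and less RNA per cell cannot be told apart.

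The arrays lay on 6 slides, and the share of spots well above background ran from 83.8% to 89.0%. Of 7 uterine markers, 6 were well above background on all arrays, among them HOXA10, HOXA11 and ESR1. PGR, the progesterone receptor, was on none. The study stained progesterone receptor protein in some nuclei at both ages, so that this probe alone does not show absence of PGR. Levels below are log2 processed signals scaled to a common 75th percentile per array, which lies at 12.62 on this scale. A gene's level was compared between animals for 1 probe at a time and never with that of another gene, and signals were summed over several probes for lists of cell type markers alone. A difference was called at an adjusted p below 0.01 in limma, with Benjamini-Hochberg adjustment over all 20217 probes.

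The probes were 60 bases long with a GC content of 35.0% to 45.0%. The first 30 bases are shown of the 4 probes whose signal differed by age, to identify the transcripts measured, while the signal came from the whole probe. Capitals mark the letters AATAAA, the canonical polyadenylation signal, which only the SFRP4 probe held among the 9. It occurred in 12.8% of all probes on the array, and its reverse complement TTTATT occurred in 4.67%.
WIF1: tgtgtaagtcacaagaatttggatggagcc
SFRP4: atacaaagatttgAATAAAtaaaactagga
FRZB: aagcacaactgaaaccagtagccgctgggg
DKK2: ccaaagggctagtttctgttttctgcagcc

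WIF1, which binds Wnt proteins directly, had the largest age difference of the 9 in controls. The levels of the 5 GD100 controls were 11.96, 11.10, 11.44, 12.00 and 11.52, and those of the 4 GD165 controls were 13.69, 14.05, 13.71 and 14.35. Every GD165 control was above every GD100 control, by at least 1.69 on the log2 scale. Group means were 11.60 ± 0.37 (SD, n = 5) and 13.95 ± 0.31 (SD, n = 4), a log2 difference of 2.34 or 5.08-fold.

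The same direction was measured in different animals, those exposed to BPA. GD100 BPA-exposed fetuses had WIF1 levels of 11.98, 11.36, 11.88, 12.24 and 12.24, and GD165 BPA-exposed fetuses had 14.06, 13.54 and 14.28. Again no value of one age reached those of the other. WIF1 rose by 2.02 on the log2 scale (SE 0.25), or 4.05-fold with a 95% confidence interval of 2.80 to 5.85, with an adjusted p of 0.000136 in limma. On slide 2, which held 1 fetus of each BPA-exposed age, the difference was 2.04, and within slides 3 and 5 it was 2.61 and 2.17 in controls.

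Among the 5 secreted frizzled-related proteins, which share a ligand-binding domain with the frizzled receptors, 2 passed the test at both exposures, SFRP4 and FRZB. SFRP4 levels in GD100 controls were 9.33, 8.55, 9.23, 9.04 and 9.10, and in GD165 controls 10.73, 10.39, 10.17 and 11.48. The 2 ages did not overlap, and GD165 control replicate 6 was the highest. SFRP4 rose by 1.64 (SE 0.27), or 3.13-fold with a 95% confidence interval of 2.09 to 4.67, with an adjusted p of 0.000614 in limma.

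In BPA-exposed fetuses SFRP4 was at 8.83, 8.39, 8.94, 9.03 and 8.84 on GD100 and at 10.25, 10.91 and 11.52 on GD165. These 3 older fetuses spread over 1.27 on the log2 scale and still lay above all 5 younger ones. The rise was 2.08 (SE 0.30), or 4.24-fold with a 95% confidence interval of 2.73 to 6.56, with an adjusted p of 0.000314 in limma. Within slides the age difference was 1.16 and 1.63 in controls and 2.67 in BPA-exposed fetuses.

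FRZB, also a secreted frizzled-related protein, changed less. GD100 controls had levels of 12.76, 12.97, 12.59, 13.50 and 12.76, and GD165 controls had 13.86, 13.82, 13.21 and 14.18. The ages overlapped, because GD100 control replicate 4, at 13.50, was above GD165 control replicate 5, at 13.21. FRZB rose by 0.85 (SE 0.20), or 1.81-fold with a 95% confidence interval of 1.34 to 2.44, with an adjusted p of 0.00751 in limma.

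This call in controls was close to the threshold and was lost when any one of 11 of the 17 animals was left out, namely GD100 controls 1, 2, 3 and 5, GD165 controls 1, 3 and 6, GD100 BPA-exposed fetuses 3, 4 and 5 or GD165 BPA-exposed fetus 5. The highest adjusted p of these was 0.0330 in limma, without GD165 control 6. In BPA-exposed fetuses FRZB was at 12.99, 12.27, 12.51, 12.62 and 12.67 on GD100 and at 13.91, 13.66 and 13.89 on GD165, with no overlap. There it rose by 1.21 (SE 0.22), or 2.31-fold with a 95% confidence interval of 1.67 to 3.20, with an adjusted p of 0.00172 in limma, and no single animal decided the call. Within slides FRZB was 1.22 and 1.10 higher at GD165 in controls and 1.23 higher in BPA-exposed fetuses.

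DKK2, a Dickkopf protein that binds the LRP co-receptors, was the member that fell. Its levels were 11.35, 11.78, 11.33, 11.57 and 11.59 in GD100 controls and 10.71, 10.05, 10.54 and 9.72 in GD165 controls. All GD165 controls were below all GD100 controls. DKK2 fell by 1.27 (SE 0.27), or 2.41-fold, with an adjusted p of 0.00352 in limma. Without GD165 control 3 or GD165 control 6 the adjusted p was 0.0118 and 0.0161 in limma.

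In BPA-exposed fetuses DKK2 was at 10.79, 11.57, 11.77, 11.78 and 11.59 on GD100 and at 10.75, 9.48 and 10.49 on GD165. Groups did not overlap, but GD100 BPA-exposed fetus 1, at 10.79, lay close to GD165 BPA-exposed fetus 3, at 10.75. DKK2 fell by 1.26 (SE 0.29), or 2.39-fold, with an adjusted p of 0.00728 in limma. The call was lost when any one of 8 animals was left out, GD100 BPA-exposed fetuses 2, 3, 4 and 5, GD165 BPA-exposed fetuses 4 and 5 or GD100 controls 1 and 4, and without GD165 BPA-exposed fetus 4 the fall was 0.88 with an adjusted p of 0.0505 in limma. Within slides the log2 difference was -1.28 and -0.89 in controls and -1.10 in BPA-exposed fetuses.

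**Figure D1:**
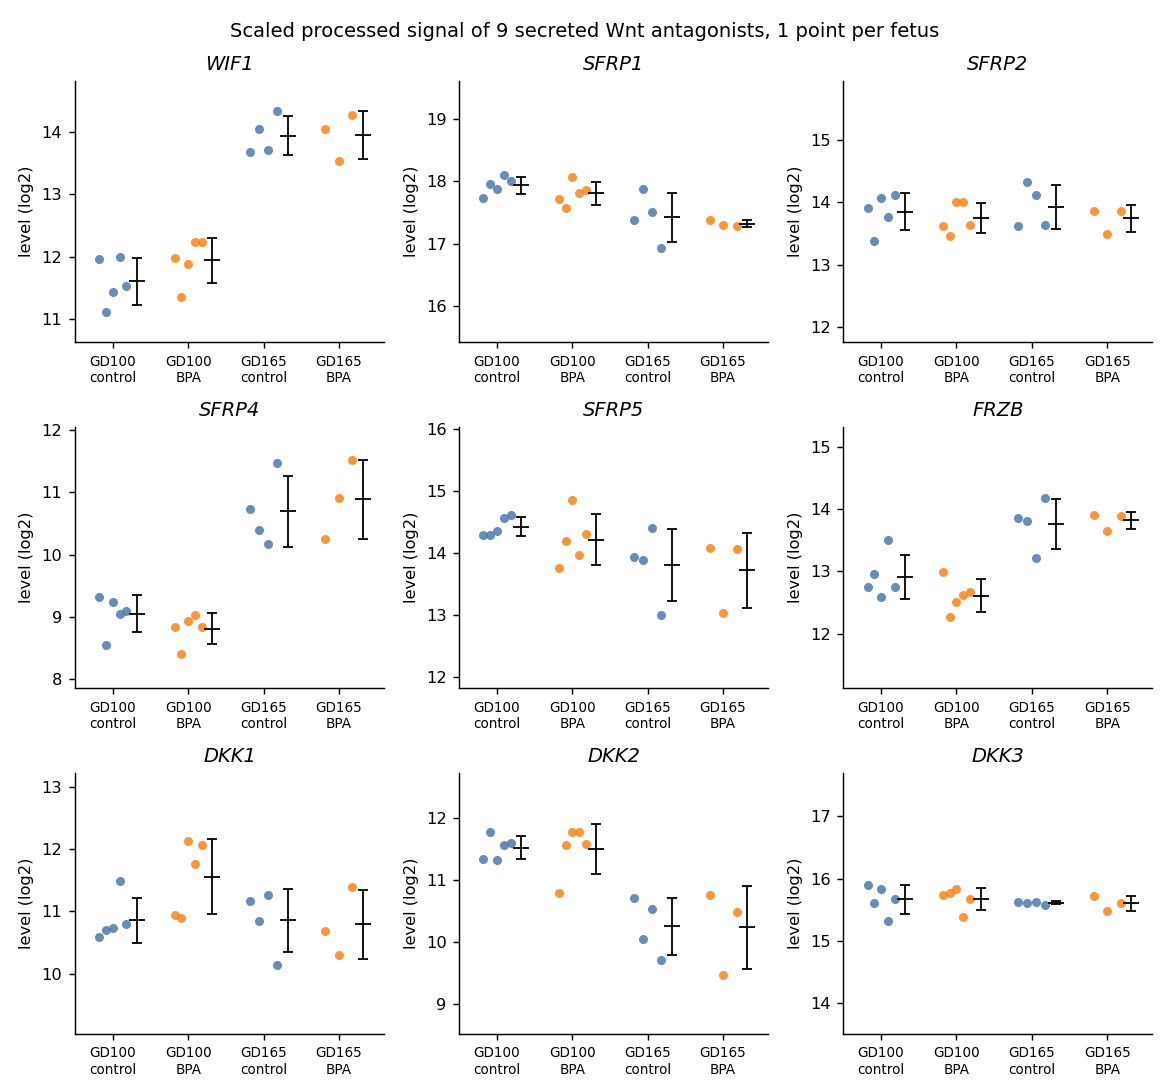
Each panel plots 1 gene, with the log2 scaled processed signal on the y axis (every panel spans the same range of log2 units) and the 4 groups on the x axis. Points are individual fetuses, blue for control and orange for BPA-exposed, and the bar beside them gives the mean and SD. WIF1 and SFRP4 separate by age at both exposures, DKK2 is lower at GD165, and the ages of DKK3 overlap at both exposures.

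The other 5 members did not pass the test by age in either exposure. SFRP1, a frizzled-related inhibitor of the same subgroup as SFRP2 and SFRP5, came nearest. Its GD100 controls had levels of 17.73, 17.95, 17.88, 18.10 and 18.01 and its GD165 controls 17.38, 17.88, 17.51 and 16.93. GD165 control 3, at 17.88, lay inside the GD100 range and the other GD165 controls below it. The log2 difference was -0.51 (SE 0.15), with an adjusted p of 0.0259 in limma, and without GD165 control 3 it was -0.66 with an adjusted p of 0.00393.

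In BPA-exposed fetuses the SFRP1 groups did not overlap, with 17.57 to 18.08 on GD100 and 17.28 to 17.39 on GD165. The log2 difference there was -0.49 (SE 0.17), with an adjusted p of 0.0484 in limma, and within slides it was 0.01 and -0.63 in controls and -0.58 in BPA-exposed fetuses. SFRP5 had log2 differences of -0.61 (SE 0.28) in controls and -0.49 (SE 0.30) in BPA-exposed fetuses, with adjusted p of 0.137 and 0.269 in limma. GD165 control 6 and GD165 BPA-exposed fetus 4, at 13.01 and 13.03, were the lowest of all 17 animals for SFRP5.

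SFRP2 and DKK3 varied little with age. DKK3 is a divergent Dickkopf protein that differs from DKK1 and DKK2 in its binding partners. For SFRP2 the log2 difference was 0.08 in controls, with a 95% confidence interval of -0.32 to 0.47, and -0.01 in BPA-exposed fetuses, with an interval of -0.44 to 0.42. For DKK3 it was -0.05, with an interval of -0.30 to 0.19, and -0.08, with an interval of -0.34 to 0.19. The 4 GD165 controls lay between 15.58 and 15.63 for DKK3.

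DKK1, the prototype Dickkopf inhibitor of the LRP co-receptors, had a log2 difference of 0.00 (SE 0.32) by age in controls. In BPA-exposed fetuses the difference was -0.77 (SE 0.35), with an adjusted p of 0.133 in limma. The direct test of whether the BPA effect on DKK1 differed between the ages gave -0.77 (SE 0.47), with an adjusted p of 0.730 in limma.

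Apart from WIF1, 3 of 8 members passed the test by age in controls, beside 11.5% of all probes called, 6.32% with a rise and 5.2% with a fall. In BPA-exposed fetuses 4 of 9 passed, beside 9.68% of all probes, 4.82% with a rise and 4.86% with a fall. The ages did not overlap for 2 of these 8 members in controls, SFRP4 and DKK2, against 19.4% of all probes, and for 5 of 9 in BPA-exposed fetuses, against 27.2%. The median log2 difference over the 9 members was 0.00 in controls and -0.08 in BPA-exposed fetuses, and over all probes it was 0.00 and -0.05. The family thus did not move one way, with WIF1, SFRP4 and FRZB on one side and DKK2 on the other.

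**Figure D2:**
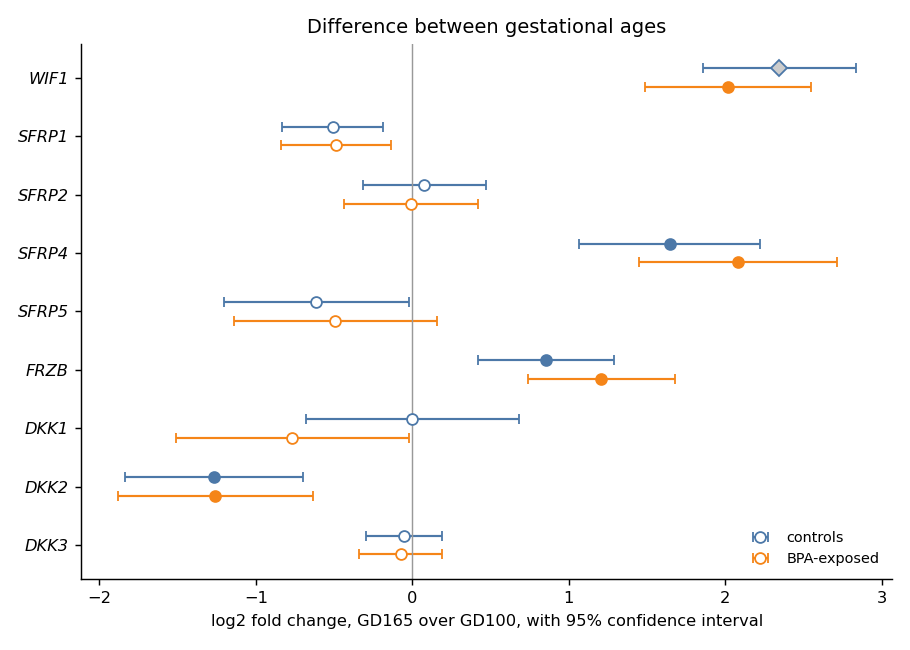
Points are log2 fold changes of GD165 over GD100 for each of the 9 genes on the y axis, in controls (blue) and BPA-exposed fetuses (orange), with bars for the 95% confidence interval. Filled points passed an adjusted p of 0.01 in limma, open points did not, and the grey diamond is WIF1 in controls, at 2.34. Its bar is drawn like the others but is not read as a test, because this difference was known beforehand.

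In the order of group means, the neighbors that separated beyond their spread were few. WIF1 ran from GD165 BPA to GD165 control, GD100 BPA and GD100 control, and only GD165 control and GD100 BPA had no overlap. For SFRP4 the one gap lay between GD165 control and GD100 control, and for DKK2 between GD100 BPA and GD165 control. Neighboring groups overlapped at every step for the other 6 genes.

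Exposure to BPA was the treatment whose effect the study set out to examine. At GD100 none of the 9 members was called in limma, beside 0% of all probes, and 1 of 9 had an unadjusted p below 0.05, as did 767 of 20217 probes. No member separated the groups, against 0.782% of all probes. That 1 member was DKK1, with levels of 10.94, 10.90, 12.13, 11.76 and 12.07 in BPA-exposed fetuses and 10.58, 10.70, 10.73, 11.48 and 10.79 in controls.

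For DKK1 3 BPA-exposed fetuses lay above every control, and the other 2 were below control replicate 4. The log2 difference was 0.70 (SE 0.30), with a 95% confidence interval of 0.06 to 1.35, an unadjusted p of 0.0346 and an adjusted p of 0.99993 in limma. Within slides 1, 2 and 3 it was 1.09, 1.37 and 0.21. The remaining members had log2 differences between -0.30, for FRZB, and 0.34, for WIF1. The WIF1 interval ran from -0.12 to 0.80 and the FRZB interval from -0.71 to 0.11.

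At GD165 none of the 9 members was called in limma, beside 0% of all probes, and none had an unadjusted p below 0.05, as 1740 of 20217 probes did. The groups overlapped for all 9, and 7.31% of all probes had groups that did not. Log2 differences of BPA-exposed over control ran from -0.18, for SFRP2, to 0.20, for SFRP4. With 4 and 3 animals the intervals were wide, and the one for SFRP4 ran from -0.46 to 0.86, the one for WIF1 from -0.55 to 0.56 and the one for DKK2 from -0.66 to 0.64. The narrowest was that of DKK3, from -0.29 to 0.27.

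The BPA effect at GD165 minus that at GD100 was called for none of the 9 in limma, beside 0% of all probes, and for none was the unadjusted p below 0.05, as it was for 1584 of 20217 probes. For SFRP4 this difference was 0.44 (SE 0.40), for FRZB 0.36 (SE 0.30) and for WIF1 -0.33 (SE 0.34). The BPA and age comparisons share groups, so that these values are not independent of those above.

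**Figure D3:**
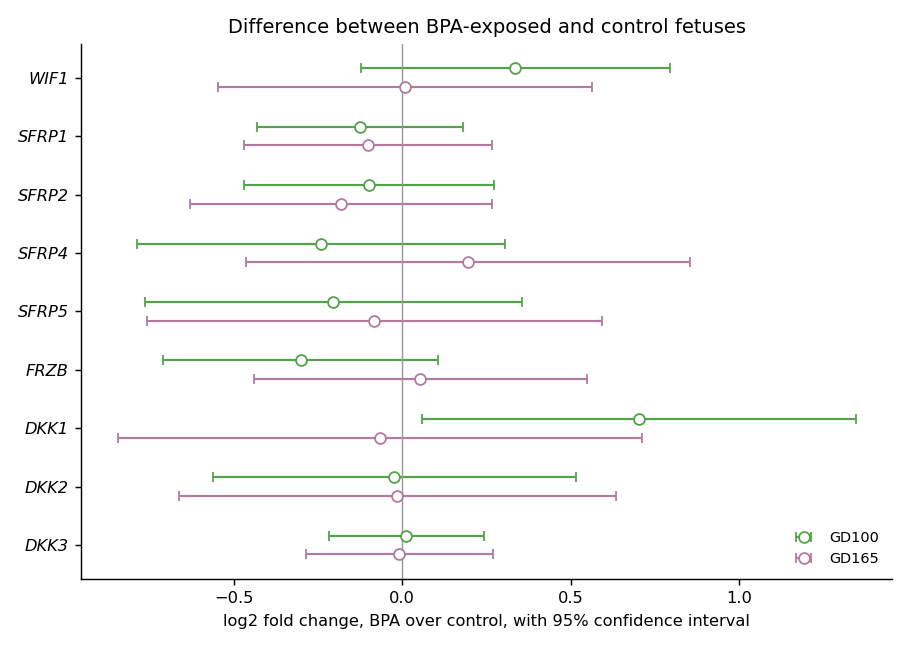
Points are log2 fold changes of BPA-exposed over control fetuses for each of the 9 genes on the y axis, at GD100 (green) and at GD165 (purple), with bars for the 95% confidence interval. All points are open because none passed an adjusted p of 0.01 in limma, and DKK1 at GD100, at 0.70, is the one whose interval leaves out 0.

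The profiles most like those of the 4 members that differed by age were found over the 17 arrays, among 14378 genes, as the lowest root mean square difference of log2 levels after each gene was centered on its own mean. Nearest to WIF1 were SAMD9, CD36 and GALNTL2, at 0.35, 0.37 and 0.38, while WIF1 itself varied by 1.13 about its mean. Nearest to SFRP4 were SAT1, SLC1A1 and the epithelial adhesion gene EPCAM, at 0.29, 0.31 and 0.34, beside 0.99 for SFRP4. FRZB was nearest to CPT1A, AKAP6 and the T cell gene CD8A, at 0.22, 0.23 and 0.24, beside 0.59. DKK2 was nearest to ADAMTS19, LMO4 and IGF2BP3, at 0.27, 0.30 and 0.30, beside 0.72. The age difference was left in these profiles, so that genes with a like age difference come nearest by construction. EPCAM, for example, rose by 1.23 in controls and 1.65 in BPA-exposed fetuses. Whether any of these genes share a cell source with the members was not tested.

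Further lists of Wnt genes were read by age, beside 11.5% of all probes called in controls and 9.68% in BPA-exposed fetuses. Of 8 further secreted antagonists 7 had a probe. SOSTDC1, which binds BMPs and LRP6, fell by 1.58 in controls and by 1.66 in BPA-exposed fetuses, with adjusted p of 0.00259 and 0.00392 in limma. It was the only one of the 7 called at either exposure.

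Of 19 WNT ligands 1 was called by age in controls and none in BPA-exposed fetuses. This was WNT5A, a ligand of the non-canonical branch, which fell by 0.55 in controls and had a log2 difference of -0.27 (adjusted p of 0.194 in limma) in BPA-exposed fetuses. The uterine ligands WNT4 and WNT7A had differences of -0.62 and 0.14 in controls, with adjusted p of 0.0278 and 0.699 in limma. In BPA-exposed fetuses theirs were 0.19 and 0.18, with adjusted p of 0.555 and 0.623 in limma. Of 10 frizzled receptors FZD6 rose, by 1.09 in controls and 0.91 in BPA-exposed fetuses. FZD2 fell by 0.88 and 0.75, and FZD9 fell by 0.66 and 0.68.

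None of 8 co-receptors, LRP5 and LRP6 among them, was called at either exposure, with a smallest adjusted p of 0.0122 in limma. Of 9 R-spondins and their receptors, which enhance Wnt signaling, 2 were matched to a probe, and the receptor LGR4 rose by 0.85 in controls and 0.92 in BPA-exposed fetuses. The list labeled WNT secretion had 3 genes measured, not all of which act in secretion. Of these GPC3, a cell surface proteoglycan, fell by 1.08 in controls. It had a difference of -0.74 in BPA-exposed fetuses (adjusted p of 0.0168 in limma).

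Of 19 transduction genes FRAT1, an inhibitor of GSK3, rose by 0.76 in controls and by 0.70 in BPA-exposed fetuses. In BPA-exposed fetuses CSNK1E rose by 0.52 and APC2 fell by 0.79. Their differences in controls were 0.09 and -0.36, with adjusted p of 0.623 and 0.0706 in limma. Of 11 target genes NKD2 and CD44 rose in controls, by 0.86 and 1.21, and MYC fell by 0.71. In BPA-exposed fetuses CD44 was called, with a rise of 1.23. NKD2 and MYC had differences of 0.60 and -0.53 there, with adjusted p of 0.0669 and 0.0585 in limma. The direct test between the exposures gave them adjusted p of 0.886 and 0.910 in limma. AXIN2, the target most often read as a measure of canonical signaling, had differences of -0.14 and -0.11, with adjusted p of 0.458 and 0.584 in limma. The median over the target genes was -0.14 in controls and -0.16 in BPA-exposed fetuses. None of the genes of these lists was called between BPA-exposed and control fetuses in limma. The study, by its own test, listed WNT2, WNT4, WNT5A and FZD2 as higher in BPA-exposed fetuses at GD165, WNT2 and WNT4 also by RT-PCR. Their log2 differences here at GD165 were 1.13, 0.66, 0.37 and 0.20, all in that direction. Their adjusted p were 0.503, 0.455, 0.528 and 0.701 in limma. With 4 control and 3 BPA-exposed fetuses, the missing call does not show that these genes were unchanged.

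**Figure D4:**
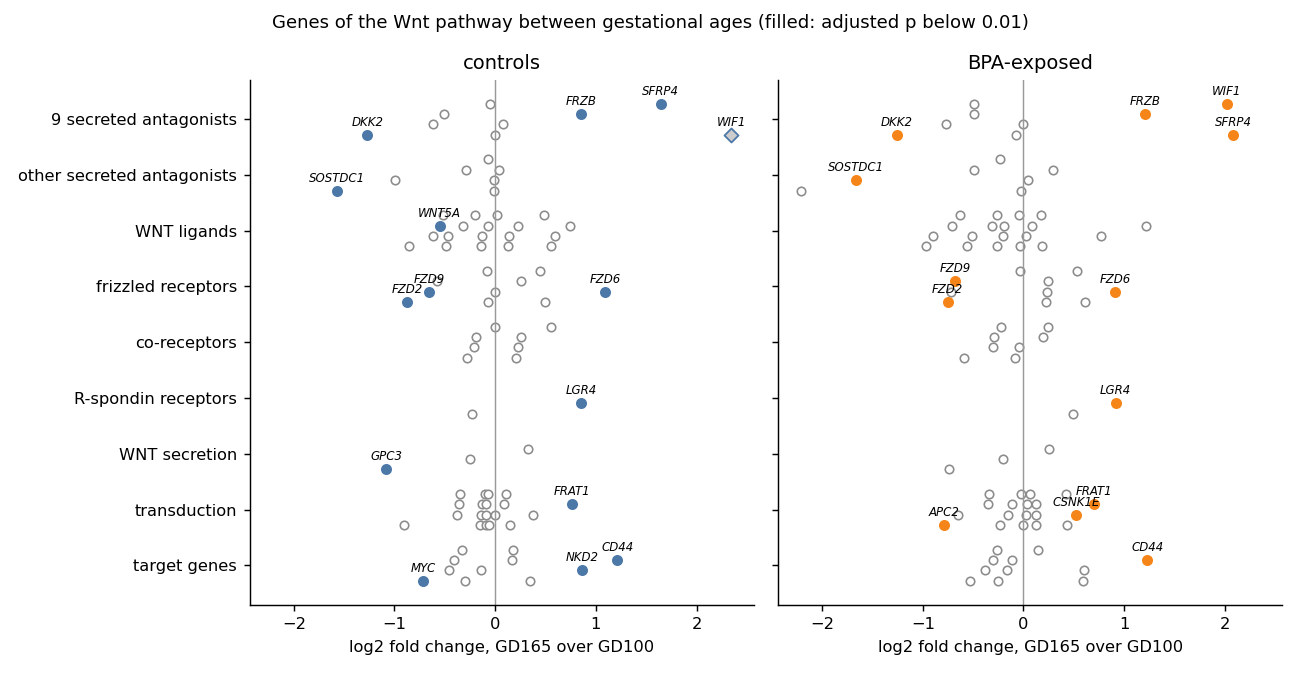
Each point is 1 gene of the Wnt pathway list named on the y axis, at its log2 fold change of GD165 over GD100 in controls (left) and BPA-exposed fetuses (right). Filled and named points passed an adjusted p of 0.01 in limma, and the grey diamond is WIF1 in controls, described without a test. WIF1 and SFRP4 lie farthest to the right in both panels.

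Some markers of cell types also differed by age, beside 11.5% of all probes called in controls and 9.68% in BPA-exposed fetuses. Of 8 epithelial markers 5 rose in controls and 3 in BPA-exposed fetuses, EPCAM, MUC1 and CLDN3 in both, and their summed signal was 115810 to 169570 in GD100 controls and 227245 to 279197 in GD165 controls. Of 8 leukocyte markers CD74 and LYZ rose at both exposures, with a summed signal of 24655 to 39156 in GD100 controls and 75175 to 107905 in GD165 controls. Of 7 endothelial markers VWF rose at both exposures and ESAM in BPA-exposed fetuses, and the control sums were 41667 to 71025 and 74999 to 133568.

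In BPA-exposed fetuses the sums were 104598 to 152221 and 169085 to 231683 for epithelial, 20832 to 34232 and 59995 to 149361 for leukocyte, and 51952 to 58010 and 72423 to 122014 for endothelial markers. Sums did not overlap between the ages for any of these 3 lists at either exposure, but they weigh the brightest probes most. The median log2 differences in controls and BPA-exposed fetuses were 0.73 and 0.47 for epithelial, 0.78 and 0.64 for leukocyte, and 0.39 and 0.50 for endothelial markers. Below 0, none of them called, were KDR (-0.30 and -0.30) and KRT8 (-0.21 and -0.73) at both exposures. In BPA-exposed fetuses CDH1 (-0.75), CD3E (-0.30) and CD79A (-0.31) were too. Skeletal muscle markers, of which MYH2 was called at both exposures and MYH8, ACTA1 and TNNT3 in controls, summed to 13999 to 15443 in GD100 controls and 24666 to 208058 in GD165 controls, and to 13085 to 23098 and 21686 to 106752 in BPA-exposed fetuses, where the ages overlapped. CKM and MYL1 were well above background in none of the 5 GD100 controls. Of 8 smooth muscle markers 2 rose in controls, CNN1 and LMOD1, and LMOD1 in BPA-exposed fetuses, while of 5 stromal markers PDGFRA fell in controls and none was called in BPA-exposed fetuses. Of 7 erythroid markers HBB, the adult beta globin, rose by 6.46 in controls and 4.67 in BPA-exposed fetuses, and no other was called at either exposure. The erythroid sums were 248142 to 419798 in GD100 controls and 444299 to 1.26125e+06 in GD165 controls, which did not overlap, and 440337 to 654370 and 320442 to 870427 in BPA-exposed fetuses, which did. None of 2 mesothelial markers was called by age. Of 8 squamous epithelial markers none was called by age, and their summed signal was 10681 to 18122 in GD100 controls, 11197 to 115106 in GD165 controls, 12752 to 19886 in GD100 BPA-exposed fetuses and 11118 to 13402 in GD165 BPA-exposed fetuses. The part of these markers in the age differences of WIF1, SFRP4, FRZB and DKK2 was not tested.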

How the data were processed

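Uterine RNA of 17 fetuses was hybridized by the authors to 1-color Agilent rhesus arrays and scanned with Agilent Feature Extraction 9.5, whose background-corrected processed signals were deposited as linear intensity values. The deposited value table held the same intensities (711467 of 711467 values identical). Log2 intensities were averaged over the 2 spots of a probe without outlier spots, scaled to each array's 75th percentile, and tested with limma 3.58.1 in R 4.3.3 over 4 groups and 20217 probes. limma stood in for the error-weighted ANOVA of the methods, and their Benjamini-Hochberg threshold of 0.01 was kept. The procedure was tested on simulated data. Members and gene lists were chosen with earlier results of these data known. Named were the 9 members, of each list the called genes (up to 3 per direction), ligands, frizzled receptors and targets, and the 3 most similar profiles per called member. Names came from the scanner descriptions, updated where older (18037 of 20217 probes named); near-identical transcripts could share a probe. Alternatives were normexp background correction, median and quantile scaling, a filter on dim probes, outlier spots kept, error weights, another prior, compared groups only, slide or replicate number as a block, and each animal left out. Same-numbered animals did not deviate together (correlations of -0.17 to 0.12), so that the numbers were not used as pairs. Precision is limited by the number of arrays, and p-values measure the spread between fetuses. Coordinates are not used here.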

Additional observations from a re-analysis of the deposited data

Results flagged for a closer look

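Each group of 4 or 5 fetuses was examined for a lone extreme value, and 2 of 27 groups held one, where chance gives about 1 in 20. For DKK1, GD100 control replicate 4 was the highest at a log2 level of 11.48, and the other 4 GD100 controls reached at most 10.79. For DKK2, GD100 BPA-exposed replicate 1 was the lowest at 10.79, and the next value was 11.57. The 3 GD165 BPA-exposed fetuses were too few for this test.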

How the results depend on the processing

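SFRP4 at both exposures and WIF1 in BPA-exposed fetuses were called by age under all 11 other settings and without any single animal, with adjusted p of at most 0.00837 in limma, and none of the 9 members was called between BPA-exposed and control fetuses under any setting. Counting WIF1, 2 of 9 members were called by age with slide as a fixed block, in controls and in BPA-exposed fetuses alike, against 4 without the block, since FRZB and DKK2 were lost. In controls 2 of 9 were also called with replicate number as a block, and without GD165 control 6 (2 to 4 over the animals left out). These counts in controls include WIF1, which is described there without a test. Apart from WIF1, SFRP4 alone was called in controls with either of these blocks and without GD165 control 6. In the replicate block, where the numbers do not pair the animals, the adjusted p in limma was 0.0754 for FRZB and 0.0520 for DKK2 in controls, 0.0213 for DKK2 and 0.00811 for SFRP1 in BPA-exposed fetuses, and no other call of a member changed. With the compared groups alone FRZB in controls and DKK2 in BPA-exposed fetuses had adjusted p of 0.0359 and 0.0351, and with median scaling FRZB in controls had 0.0101. The cause of these losses was not tested.

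Over all probes, 2328 were called by age in controls, and 1172 with the compared groups alone, 1233 with slide as a fixed block, 958 with the replicate block, 4279 at a threshold of 0.05 and 1512 to 2370 over the animals left out, the lowest without GD165 control 6. In BPA-exposed fetuses 1956 were called, and 1176, 512 with slide as a fixed block, 4255 at 0.05 and 994 to 2131 over the animals left out, with 994 and 1181 without GD165 BPA-exposed fetus 4 or 5. Between exposures 0 probes were called, and 1 at GD100 with the compared groups alone or without GD165 BPA-exposed fetus 4, 1 at GD165 without GD165 control 1, 3 or 6, and 1 for the difference of the BPA effects without GD165 BPA-exposed fetus 4 (0 to 1 over the animals left out).

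Differences near 0, none of them called, changed sign with the processing. By age these were DKK1 in controls with median scaling (-0.051) or quantile normalization (-0.028) and SFRP2 in BPA-exposed fetuses with slide as a fixed (0.086) or random block (0.011). For BPA at GD100 they were DKK3 with median scaling (-0.018) and SFRP1 (0.027), SFRP5 (0.031) and DKK2 (0.060) with slide as a fixed block. For BPA at GD165 they were DKK3 with normexp (0.0021), median scaling (0.019), quantile normalization (0.030) or the replicate block (0.11), DKK2 with median scaling (0.013) or quantile normalization (0.023), and SFRP2 (0.0023) and FRZB (-0.14) with slide as a fixed block. For the difference of the BPA effects they were DKK2 with normexp (-0.025), DKK3 with median scaling (0.037), SFRP1 (-0.20), SFRP2 (0.062), SFRP5 (-0.17) and DKK2 (-0.28) with slide as a fixed block, SFRP1 (-0.022) and DKK2 (-0.058) with it as a random block, and SFRP1 (-0.22), SFRP5 (-0.14), DKK2 (-0.19) and DKK3 (0.10) with the replicate block.

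With each animal left out in turn, sign changes were again found for uncalled differences alone. By age the ranges were -0.14 to 0.24 for DKK1, -0.14 to 0.0028 for DKK3 and -0.057 to 0.18 for SFRP2 in controls, and -0.079 to 0.12 for SFRP2 in BPA-exposed fetuses. For BPA at GD100 they were -0.093 to 0.15 for DKK2 and -0.074 to 0.087 for DKK3. For BPA at GD165 they were -0.37 to 0.18 for DKK1, -0.27 to 0.37 for DKK2, -0.067 to 0.052 for DKK3, -0.13 to 0.19 for FRZB, -0.27 to 0.050 for SFRP1, -0.12 to 0.52 for SFRP4, -0.35 to 0.26 for SFRP5 and -0.15 to 0.22 for WIF1. For the difference of the BPA effects they were -0.25 to 0.39 for DKK2, -0.096 to 0.066 for DKK3, -0.14 to 0.18 for SFRP1, -0.19 to 0.050 for SFRP2 and -0.14 to 0.47 for SFRP5. Averaging the probes of a gene was not run as a separate setting, because each member had 1 probe. With 3 to 5 animals a group, the number of arrays limits the precision. All 9 probes were well above background on all arrays.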
